A study of Homo sapiens with 9 samples.

Results

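The compounds BSGL and RSGL were compared directly, at the same dose and time, by RNA sequencing of human cells labelled H441, a lung adenocarcinoma line. The comparison used 6 of the 9 libraries of the study: 3 from cells exposed for 24 h to 10 µM BSGL and 3 from cells exposed for 24 h to 10 µM RSGL. Another 3 libraries, from cells given 0.1% DMSO for 24 h, are shown as the solvent background and entered the estimate of the spread. Genes were taken where at least 3 of the 6 compound libraries held 1 or more FPKM (sequenced fragments divided by the length of the gene and by the size of the library) and where the gene lay on a chromosome of the primary assembly or on the mitochondrial genome. This left 12224 of the 45754 genes in the deposited table. BSGL and RSGL are code names, and the sources used here give no structure for either, so the 1 pair of compounds is compared by response only.

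The labels name H441 as the cell line of all 9 samples, but the entry for genotype reads H460 for the control and BSGL samples and A549 for the RSGL samples. Both are names of other lung cancer lines, and this entry changes with the compound, so that from the labels a difference of line and a difference of compound cannot be told apart. As a description, 0 genes stood at 5 FPKM or more in all 3 libraries of 1 compound and at 0.1 FPKM or less in all 3 of the other. That cut-off is strict, and IL24, at 11.1 FPKM or more under RSGL and up to 0.282 under BSGL, misses it. Of 39 HOX genes, 19 reached 1 FPKM in all BSGL libraries and 18 in all RSGL libraries, 18 of them under both compounds. Of these genes, 0 did so under 1 compound while staying under 0.1 FPKM in all libraries of the other. No reference profile of H441, H460 or A549 was compared, so which line was used was not tested. Of the 20 HOX genes tested, 6 were higher and 7 lower under RSGL by limma at a Benjamini-Hochberg adjusted p under 0.05. That is 65.0%, beside 56% of all tested genes. Their differences ran from -0.63 for HOXB5 to 0.655. The protocol in the labels speaks of 1 replicate per treatment, so the p-values given here measure the spread between libraries, which may be technical.

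The libraries held 16720414 to 18738947 fragments in genes, and 12213 to 12338 genes per library reached 1 FPKM. On the first principal component, with 68.8% of the variance, the RSGL libraries scored 29.95 to 30.08 and the BSGL and control libraries -16.1 to -13.9. Of 7 endothelial markers 0 reached the level for testing. T cell markers summed to 5.63 to 6.14 FPKM under BSGL and 4.80 to 5.57 under RSGL, nearly all of it IL7R, which was lower under RSGL by the same test, and CD3D, CD3E and CD3G were at 0 in every library. Macrophage markers are given below with CD68. Of 12 markers of the distal lung lineage, 1 was tested. This was ABCA3, at 4.96 FPKM under BSGL and 9.25 under RSGL, higher by the same test. NKX2-1, the factor that defines that lineage, stayed at or under 0.0596 FPKM and SFTPB at or under 0.0390 in all 9 libraries. The labelled lung origin thus did not show in NKX2-1 or SFTPB in any group. Of 8 epithelial markers 6 were tested, 4 of them lower and 1 higher, beside 28.3% of all tested genes lower and 27.7% higher. KRT8 stood at 654 FPKM under BSGL and 428 under RSGL and KRT7 at 672 and 529.8, whereas KRT19 was low and higher under RSGL (1.79 and 4.07), and EPCAM (0.546 and 0.528) and CLDN7 (0.260 and 0.183) were near 0. All 7 mesenchymal markers were tested, with 3 higher and 3 lower, beside the same shares of all tested genes. Their sum was 435 to 458 FPKM under BSGL and 507 to 544 under RSGL, most of it VIM.

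As background, cells that are short of amino acids or whose organelles are under stress slow general protein synthesis while the transcription factor ATF4 raises genes for amino acid supply and stress handling. Growth factor signals through the kinase ERK raise short-lived transcription factors together with phosphatases that switch the same kinase off again. Dividing cells express the replication and mitosis genes in successive phases, and these messages fall where fewer cells divide.

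Under RSGL the secreted stress signals GDF15 and IL24 and the ERK phosphatase DUSP5 were among the genes furthest above BSGL. So were the heme-degrading enzyme HMOX1 and the lipid genes ANGPTL4 and PLIN2. The vesicle protein gene CPLX2 and the vitamin D-degrading enzyme CYP24A1 were furthest below BSGL. IL24 passed the filter through the RSGL libraries alone and CPLX2 through the BSGL libraries alone, so the filter set their direction. The compounds differed in 6851 of the 12224 genes (56%) by limma's moderated test with a Benjamini-Hochberg adjusted p under 0.05, which is what "called" means below. Of these, 3387 (27.7% of all tested genes) were higher and 3464 (28.3%) were lower under RSGL. Differences are RSGL minus BSGL on the log2(FPKM + 1) scale, which understates the change of genes with little expression. Most were small, with a median size among called genes of 0.32. A difference of 1, here named 2-fold because FPKM + 1 changes 2-fold, was reached by 350 genes (2.86%). Of these, 189 (1.55%) were higher and 161 (1.32%) lower. In 7632 genes (62.4%) the 3 libraries of 1 compound did not overlap the 3 of the other. Of the 6851 called genes, 6625 had a control mean nearer to the BSGL mean than to the RSGL mean, and of the 350 called genes of 2-fold or more, 3 had one nearer to the RSGL mean.

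The compounds gave closely similar levels on the log2(FPKM + 1) scale in another large share of the genes. For 3575 genes (29.2%) the whole 95% interval of the difference lay within 0.25 of 0, and 530 of these were called all the same. A difference of 0.25 is a 1.19-fold change of FPKM + 1, and a larger change of FPKM itself in genes with little expression. With a pseudocount of 0.1, 2708 genes had such an interval. Among the 5373 genes that were not called, the interval reached past 0.25 in 2328 and past 1 in 327, so for those genes the data leave room for a difference of that size. A test against a 1.2-fold change of FPKM + 1, in place of no change, called 2103 genes. With a pseudocount of 0.1 in place of 1, the counts of 2-fold genes became 330 higher and 293 lower. At the filter, 170 tested genes passed through the BSGL libraries alone and 166 through the RSGL libraries alone, among them 5 and 7 of the 805 genes in the lists described below. The direction of those genes was set by the filter, and the 7 are CHAC1, SPRY1, FOS, FOSB, PPARA, HK2 and IL24.

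**Figure D1:**
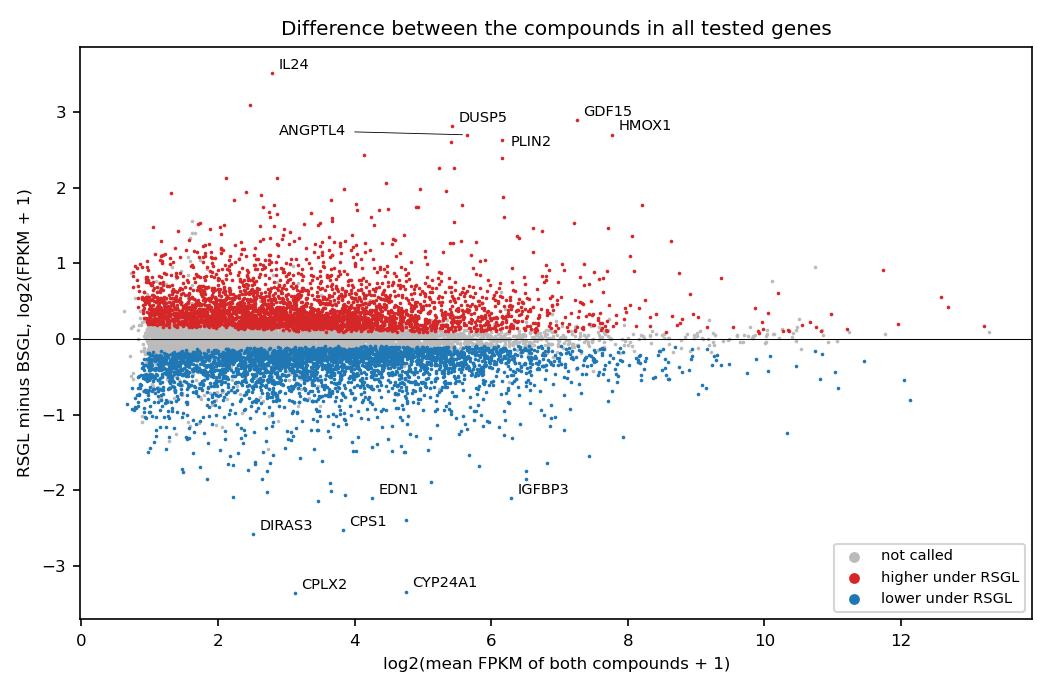
Difference between the compounds (RSGL minus BSGL, log2(FPKM + 1) scale) against the mean level over both compounds (log2 FPKM + 1) for the 12224 tested genes. Red points were called higher and blue points lower under RSGL, grey points were not called, and the 12 labelled genes range from CPLX2 at -3.36 to IL24 at 3.52.

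IL24 encodes a cytokine that was close to silent in all cells but those given RSGL. The gene passed the filter through the RSGL libraries alone, so its direction was set by the filter. Its values were 0.129, 0.101 and 0.156 FPKM in the control libraries, 0.0742, 0 and 0.282 under BSGL and 11.1, 12.1 and 12.1 under RSGL, a log2 difference of 3.52 (95% interval 3.32 to 3.72). FCMR overlaps IL24 on the other strand, and the sources used here do not say whether counting kept the strands apart. GDF15, a secreted protein of the TGF-beta superfamily that many stresses induce, stood at 33.8, 37.5 and 35.01 FPKM under BSGL and at 266, 272 and 269.7 under RSGL, 7.60-fold higher by the means. The BSGL libraries lay close to the control libraries (31.6, 33.5 and 32.3), and the RSGL libraries lay far above both. DUSP5, a nuclear phosphatase that inactivates ERK, rose from 9.16, 10.5 and 9.50 FPKM to 71.5, 76.3 and 75.5, with control at 9.93, 9.23 and 8.92.

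HMOX1, the enzyme that opens the heme ring, stood at 59.1, 56.3 and 55.6 FPKM under BSGL and at 375, 372 and 386 under RSGL (limma, Benjamini-Hochberg adjusted p = 2.07e-11). Its control libraries, at 61.1, 61.9 and 64.3, were slightly above the BSGL ones. ANGPTL4 encodes a secreted inhibitor of lipoprotein lipase. It had 7.96, 7.80 and 7.17 FPKM in control, 11.6, 14.3 and 11.1 under BSGL and 85.5, 83.5 and 87.2 under RSGL, so that BSGL libraries exceeded every control library and RSGL libraries exceeded both. PLIN2, which coats lipid droplets, read 19.6, 18.8 and 18.04 FPKM under BSGL and 125, 116 and 125 under RSGL. In each of these 6 genes the RSGL libraries lay above every BSGL and control library, while BSGL and control libraries overlapped in IL24 and DUSP5. Lack of overlap between the compounds was a condition for naming these genes.

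On GRCh38, as the deposited table gives positions, IL24 (NCBI gene 11009) lies at chr1:206897404-206904139, GDF15 (9518) at chr19:18386158-18389176 and DUSP5 (1847) at chr10:110497867-110511544. HMOX1 (3162) lies at chr22:35381067-35394214, ANGPTL4 (51129) at chr19:8364127-8374375 and PLIN2 (123) at chr9:19108391-19127606. Among genes that were lower under RSGL, CPLX2 (10814) lies at chr5:175796539-175884021 and CYP24A1 (1591) at chr20:54145731-54173985.

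CPLX2 encodes a complexin, a protein that binds the membrane fusion machinery of secretory vesicles, and it was nearly lost under RSGL. The gene passed the filter through the BSGL libraries alone, so its direction was set by the filter. It read 19.6, 20.1 and 19.3 FPKM in control, 12.8, 16.7 and 15.4 under BSGL and 0.505, 0.673 and 0.464 under RSGL, a log2 difference of -3.36 (-3.55 to -3.17). CYP24A1, the enzyme that breaks down active vitamin D, read 46.2, 48.4 and 48.8 FPKM under BSGL against 3.48, 3.85 and 4.12 under RSGL, 12.5-fold lower by the means. For both genes the BSGL libraries also lay below the control libraries, where CYP24A1 stood at 55.9, 59.4 and 53.6.

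DIRAS3, an imprinted gene for a small GTPase of the Ras family, had 9.10, 8.73 and 8.62 FPKM under BSGL and 0.424, 0.705 and 0.796 under RSGL. It passed the filter through the BSGL libraries alone, so its direction was set by the filter. CPS1, which makes carbamoyl phosphate for the urea cycle in mitochondria, had 21.4, 24.2 and 24.02 and 3.60, 2.96 and 3.03. The precursor of the vasoconstrictor endothelin, EDN1, had 31.1, 30.2 and 29.2 and 6.77, 6.22 and 5.69. All 3 genes lost most of their message under RSGL and kept a level near control under BSGL (control means of 9.29, 25.2 and 30.9 FPKM). IGFBP3, a carrier of insulin-like growth factors in the medium, stood at 124, 129 and 127 FPKM under BSGL and at 29.4, 27.04 and 29.7 under RSGL (limma, Benjamini-Hochberg adjusted p = 3.23e-10).

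**Figure D2:**
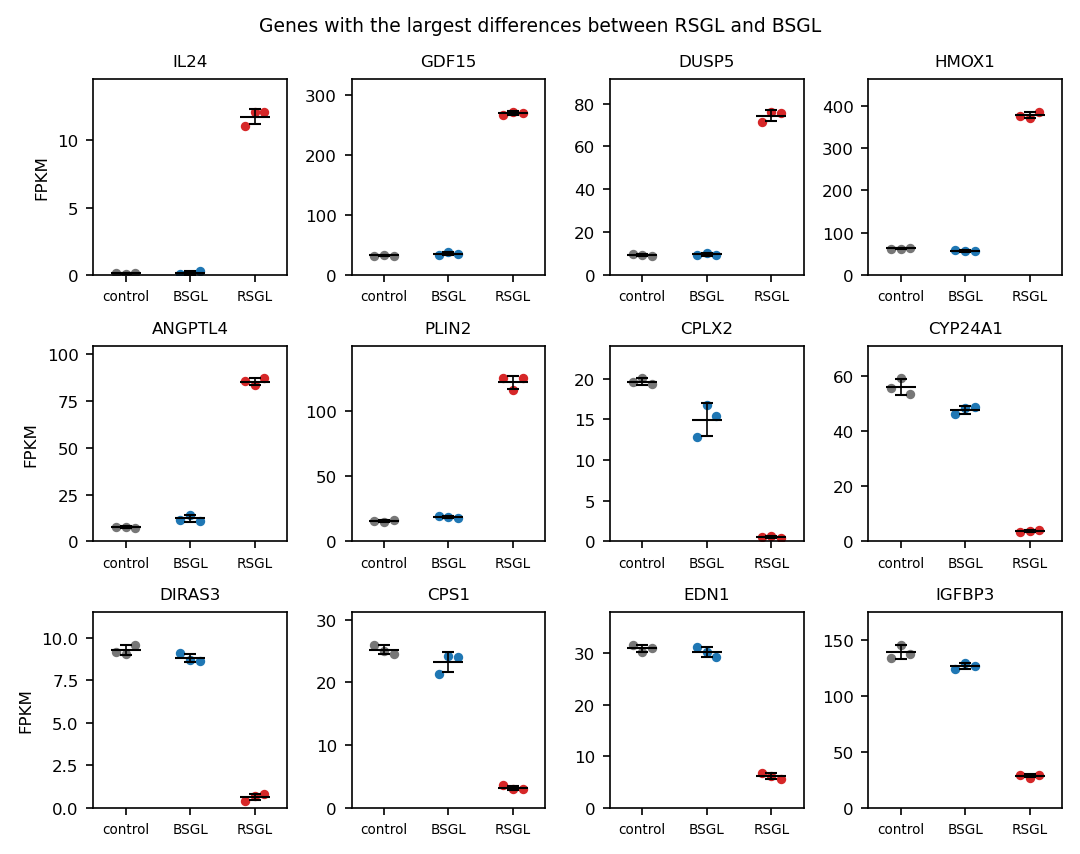
FPKM in the 9 libraries for the 6 protein-coding genes with the largest rise and the 6 with the largest fall under RSGL against BSGL (called, libraries apart, mean of 5 FPKM or more under 1 compound), 1 panel per gene with its own linear axis from 0. Points are libraries, lines are means and bars are SD (n = 3), and in each panel the RSGL libraries stand apart from both other groups.

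**Figure D3:**
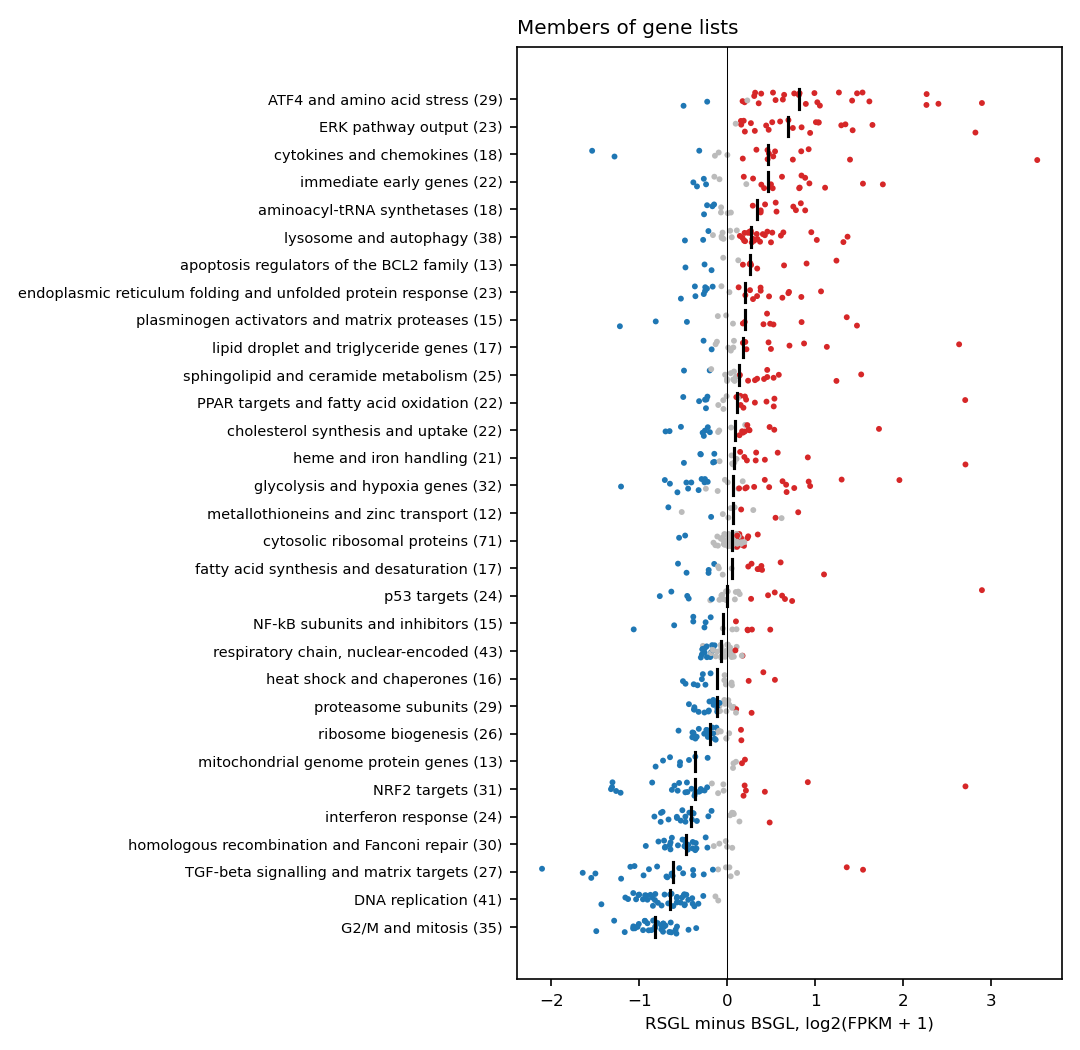
Difference between the compounds (RSGL minus BSGL, log2(FPKM + 1) scale) for the tested members of the gene lists, with the number of tested members in brackets and lists ordered by their median (black bar). Red points were called higher, blue points lower and grey points not called, and the medians run from -0.82 for G2/M and mitosis genes to 0.81 for ATF4 and amino acid stress genes.

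Gene lists were read by the number of members called in each direction, against 27.7% of all tested genes called higher and 28.3% called lower, and by the median difference, against -0.0016 over all tested genes. The plot of list members shows ATF4 targets and ERK output genes at the upper end and mitosis and replication genes at the lower end.

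Genes of the ATF4 response were higher under RSGL. Of 29 tested members, 26 were higher and 2 lower, with a median difference of 0.81. ATF4 itself read 113 ± 3.63 FPKM under BSGL and 200.4 ± 10.1 under RSGL (SD, n = 3). DDIT3, the death-promoting partner that is made under prolonged stress, read 12.4, 11.7 and 12.04 FPKM under BSGL and 62.4, 60.5 and 61.5 under RSGL. The pseudokinase TRIB3, which is induced by both and restrains ATF4, read 20.2, 21.9 and 23.6 and 125, 118 and 115. STC2, a secreted glycoprotein, read 14.3, 13.8 and 14.3 and 69.4, 73.3 and 72.2. None of these RSGL libraries overlapped the BSGL libraries, which for TRIB3 and STC2 was a condition of naming them. The BSGL libraries lay near the control level (control means of 14.02 FPKM for DDIT3, 21.8 for TRIB3 and 13.3 for STC2).

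The enzymes that supply amino acids moved the same way. Asparagine synthetase, ASNS, went from 51.3, 50.8 and 50.3 FPKM under BSGL to 147, 141 and 141 under RSGL. For serine synthesis, PHGDH differed by 1.27 and PSAT1 by 0.89 on the log2 scale, and for mitochondrial folate metabolism MTHFD2 differed by 0.76. The glutathione-degrading enzyme CHAC1, whose direction was set by the filter, differed by 1.54 and the leucine carrier SLC7A5 by 0.17. The 2 lower members were ATF5 (-0.50), which overlaps NUP62 and IL4I1 on the other strand, and the cystine carrier SLC7A11 (-0.23). NUPR1 was not called (3.55 FPKM under BSGL and 4.30 under RSGL).

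To show the sequence in front of genes of this group, the 250 bases upstream of each gene's start were searched for TGATGNAA, the core of the composite site that ATF4 and C/EBP proteins bind, on both strands, in RefSeq promoters of GRCh38.p14. A match was found in 3 of 23 ATF4 response genes with a promoter in the table and in 2 of 15 aminoacyl-tRNA synthetase genes, beside 1.3% of 9235 tested genes and 3.2% of all 27305 promoters. The 80 bases around the match are given for these 3 ATF4 response genes, read 5′ to 3′ on the strand of the gene, with the match in capitals. ASNS and ATF3 were higher under RSGL, and so was CHAC1, whose direction was set by the filter. They lie at chr7:97872433-97872512, minus strand for ASNS, chr15:40953226-40953305, plus strand for CHAC1 and chr1:212565180-212565259, plus strand for ATF3. A match describes these letters and is not evidence of binding.
ASNS: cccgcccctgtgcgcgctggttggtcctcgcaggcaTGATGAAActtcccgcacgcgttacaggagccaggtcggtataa
CHAC1: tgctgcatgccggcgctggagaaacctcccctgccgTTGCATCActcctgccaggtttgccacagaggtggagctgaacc
ATF3: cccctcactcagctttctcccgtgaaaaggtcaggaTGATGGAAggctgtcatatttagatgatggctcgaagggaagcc

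The log2 difference was 1.47 for ASNS, 1.54 for CHAC1 and 1.05 for ATF3, an ATF family member that is itself a stress-induced factor. In CHAC1 the match lies on the other strand. Aminoacyl-tRNA synthetases, which load amino acids onto tRNAs, split: 10 of 18 were higher and 4 lower, with a median of 0.34. SARS1, for serine, rose from 25.4, 25.3 and 26.00 FPKM to 49.5, 47.3 and 47.6, and GARS1, for glycine, from 76.2 ± 1.42 to 137 ± 4.57 (SD, n = 3). QARS1, for glutamine, was lower (-0.26), as were HARS1 (-0.23) and RARS1 (-0.15), among others. The compounds gave like levels of KARS1, for lysine, with 75.9, 74.7 and 73.8 FPKM under BSGL and 76.8, 75.5 and 72.98 under RSGL and an interval of -0.099 to 0.11.

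In the endoplasmic reticulum, 13 of 23 folding and unfolded protein response genes were higher and 8 lower, with a median of 0.21. Among the higher ones, ERN1 (0.84), EIF2AK3 (0.47), ATF6 (0.21) and XBP1 (0.63) signal stress from this organelle, and EDEM1 (0.69) and HERPUD1 (0.70) serve degradation of misfolded proteins. DNAJB9, a chaperone cofactor, read 4.44, 4.38 and 5.32 FPKM under BSGL and 11.4, 11.1 and 10.3 under RSGL, and THAP5 overlaps it on the other strand. Among the lower ones were folding helpers: CALR went from 462, 467 and 447 to 314, 319 and 322 FPKM, and HSP90B1 (-0.27), PDIA4 (-0.25), SDF2L1 (-0.37) and MANF (-0.23) were called lower too. HSPA5, the main chaperone of the organelle, was higher by 0.26. Among cytosolic and mitochondrial chaperones 8 of 16 were lower and 3 higher, with a median of -0.11. DNAJA1 read 159.9, 158 and 150.1 FPKM under BSGL and 109, 110.4 and 110.1 under RSGL. The small heat shock protein gene HSPB1 was at a like level under both compounds, 315 ± 14.8 and 325 ± 7.95 FPKM, with an interval of -0.042 to 0.14.

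The output genes of the ERK pathway were higher under RSGL as a group. Of 23 tested, 22 were higher and 0 lower, with a median of 0.70. The libraries of both compounds did not overlap in any of the 23, beside 62.4% of all tested genes without overlap. SPRY1, 1 of the 22, passed the filter through the RSGL libraries alone, so its direction and lack of overlap were set by the filter. The 62.4% also holds genes of this kind, 170 through the BSGL libraries alone and 166 through the RSGL libraries alone. The phosphatase genes stood out, with DUSP6 at 2.29, 2.82 and 2.42 FPKM under BSGL and 10.03, 9.17 and 10.8 under RSGL beside the DUSP5 values above, and DUSP4 higher by 0.44. The inhibitors SPRY2 (1.30) and SPRY4 (0.51) were higher as well.

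Ligands of the EGF receptor followed. Epiregulin, EREG, read 57.7, 56.4 and 56.99 FPKM under BSGL and 160.2, 151 and 153 under RSGL. Amphiregulin, AREG, differed by 1.03, TGFA by 1.04 and HBEGF by 1.01. The AP-1 factor FOSL1 went from 47.1 ± 1.157 to 121 ± 7.57 FPKM (SD, n = 3). ETV1 was not called, at 3.41 and 3.71 FPKM, and CCND1, which drives entry into the cycle, differed by 0.16 with an interval of 0.087 to 0.23.

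Immediate early genes, which respond to a signal without new protein synthesis, were higher in 15 of 22 tested cases and lower in 4, with a median of 0.46. JUN read 20.4, 22.3 and 18.95 FPKM under BSGL and 70.2, 71.6 and 75.02 under RSGL (limma, Benjamini-Hochberg adjusted p = 2.71e-09). DUSP1 read 72.2, 76.8 and 75.5 and 218, 222 and 219. GADD45A, which slows the cycle under stress, was higher by 1.11 and KLF6 by 0.88. FOS (0.779 to 2.20 FPKM), FOSB (0.474 to 1.61) and EGR1 (1.77 to 3.88) were higher at a low level throughout. FOS and FOSB passed the filter through the RSGL libraries alone, so their direction was set by the filter. The lower members were CCN2 (-0.38), BTG2 (-0.34), JUNB (-0.27) and KLF10 (-0.24). The AP-1 motif TGANTCA was found in the 250 upstream bases of 2 of 16 ERK output genes (12.5%) and of 0 of 18 immediate early genes, beside 3.8% of tested genes and 6.6% of all promoters.

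Genes of mitosis were lower under RSGL without exception among those listed: 35 of 35 tested, with a median of -0.82. The libraries of both compounds did not overlap in any of the 35, beside 62.4% of all tested genes without overlap. In bulk RNA, fewer dividing cells and less message per dividing cell cannot be told apart. KIF20A, a kinesin of the central spindle, read 33.7, 34.1 and 32.5 FPKM under BSGL and 12.1, 11.1 and 10.7 under RSGL, and CDC23 overlaps it on the other strand. The proliferation marker MKI67 read 41.2, 42.1 and 40.96 and 18.2, 17.9 and 13.6. For both genes the BSGL libraries lay within or just above the control range (33.4, 32.3 and 35.2 FPKM for KIF20A and 39.01, 40.7 and 41.7 for MKI67).

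Among regulators of mitotic entry and progress the log2 difference was -0.94 for the kinase CDK1, -0.93 for its cyclin CCNB1, -1.05 for PLK1, -1.07 for AURKA, -0.64 for the phosphatase CDC25C and -0.91 for FOXM1, the transcription factor of this gene set. TOP2A, which untangles DNA before division, went from 157 ± 3.77 FPKM under BSGL to 75.5 ± 0.481 under RSGL (SD, n = 3). The smallest differences of the list were those of CDC25B (-0.35) and CENPA (-0.44).

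The upstream 250 bases of these genes were searched for TTTGAA, the core of the cell cycle homology region through which many late cell cycle genes are timed, on both strands. It was present in 16 of 29 mitosis genes with a promoter (55.2%) and in 1 of 35 DNA replication genes (2.9%), beside 8.1% of tested genes and 13.6% of all promoters. CCAAT, which is often found in front of such genes, was present in 23 of 29 (79.3%) beside 35.2% of tested genes and 33.0% of all promoters. The last 80 bases before the start of 6 mitosis genes are shown as examples with TTTGAA close to the start. All 6 genes were lower under RSGL. ANLN, BUB1B and CENPA, also lower, carry it 20, 23 and 18 bases before the start and are not shown. The match nearest the start, in capitals, began 20 to 29 bases before it in these 6 RefSeq promoters of GRCh38.p14. They lie at chr10:128126424-128126503, minus strand for MKI67, chr10:92593050-92593129, plus strand for KIF11, chr16:23678809-23678888, plus strand for PLK1, chr5:163460552-163460631, plus strand for HMMR, chr15:90994536-90994615, minus strand for PRC1 and chr15:59105066-59105145, plus strand for CCNB2. They are printed 5′ to 3′ on the strand of the gene.
MKI67: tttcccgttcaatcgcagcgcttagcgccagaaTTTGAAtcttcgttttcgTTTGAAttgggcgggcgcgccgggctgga
KIF11: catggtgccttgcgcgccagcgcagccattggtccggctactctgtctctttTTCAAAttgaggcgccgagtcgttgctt
PLK1: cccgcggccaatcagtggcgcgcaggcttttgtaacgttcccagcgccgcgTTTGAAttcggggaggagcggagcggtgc
HMMR: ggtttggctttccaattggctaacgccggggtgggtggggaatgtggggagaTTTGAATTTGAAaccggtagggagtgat
PRC1: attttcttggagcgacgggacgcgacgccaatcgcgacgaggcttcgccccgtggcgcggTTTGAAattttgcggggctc
CCNB2: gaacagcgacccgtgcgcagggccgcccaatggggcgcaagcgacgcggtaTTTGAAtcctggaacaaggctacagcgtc

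MKI67 and HMMR hold the motif in 2 places, both in capitals, and KIF11 holds it on the other strand. The log2 difference of these genes was -1.28 for MKI67, -1.07 for the spindle motor KIF11, -1.05 for PLK1, -0.73 for HMMR, -0.70 for the midzone protein PRC1 and -0.66 for the cyclin CCNB2. Whether the motif has a part in the difference was not tested.

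DNA replication genes were lower in 39 of 41 tested cases and higher in 0, with a median of -0.65. RRM2, the regulated subunit of ribonucleotide reductase, read 82.6, 78.7 and 80.5 FPKM under BSGL and 35.9, 35.95 and 34.8 under RSGL. All 6 helicase subunits from MCM2 (-0.63) to MCM7 (-0.85) were lower, MCM4 by the most (-1.13), and the sliding clamp PCNA went from 186 ± 5.11 to 97.9 ± 1.98 FPKM (SD, n = 3). The exceptions were PRIM2 (3.17 and 2.80 FPKM) and CCNE1 (18.1 and 16.8 FPKM, interval -0.25 to 0.045), which were not called.

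Genes of homologous recombination and Fanconi repair were lower in 25 of 30 tested cases and higher in 0, with a median of -0.47. The exonuclease EXO1 read 12.3, 13.7 and 13.3 FPKM under BSGL and 6.79, 6.30 and 6.20 under RSGL. BRCA1 differed by -0.64 and BRCA2 by -0.48. XRCC3 differed by -0.78, with KLC1 on its other strand. RBBP8, which starts the trimming of broken ends, stood at 11.4 FPKM under BSGL and 11.4 under RSGL, and RAD51D and PALB2 were not called either.

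The targets of p53 did not move together: 7 of 24 tested were higher and 5 lower, shares of 29.2% and 20.8% beside the 27.7% and 28.3% of all genes, and the median was -0.0039. MDM2, the p53 antagonist that p53 itself induces, read 14.1, 13.97 and 13.5 FPKM under BSGL and 13.3, 13.3 and 13.3 under RSGL and was not called, with an interval of -0.15 to 0.030. The cell cycle inhibitor CDKN1A was higher, at 78.1, 79.6 and 76.96 and 121, 127 and 124 FPKM, and so were the death receptor genes TNFRSF10B (0.74) and TNFRSF10A (0.54). RHOBTB2 overlaps TNFRSF10B on the other strand. PLK2 (-0.77), TP53I3 (-0.63) and DDB2 (-0.45) were lower.

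Among BCL2 family genes, 8 of 13 were higher and 3 lower, and the called genes included members of opposite function. The survival gene MCL1 read 61.00, 64.6 and 58.98 FPKM under BSGL and 97.7, 97.6 and 94.9 under RSGL. The death-promoting BMF read 1.06, 1.02 and 1.19 and 4.09, 3.76 and 3.96. Another death-promoting member, BCL2L11, was lower (2.33, 2.23 and 2.12 FPKM and 1.15, 1.44 and 1.38).

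NRF2 targets were mostly lower under RSGL, although HMOX1, which NRF2 can induce, was among the largest rises. Of 31 tested, 21 were lower and 6 higher, with a median of -0.36. OSGIN1 read 30.8, 29.1 and 33.6 FPKM under BSGL and 12.8, 12.2 and 10.7 under RSGL. GCLC, the catalytic subunit of the first enzyme of glutathione synthesis, read 65.3, 65.3 and 63.6 and 27.8, 27.9 and 26.5. The reductase AKR1B10 read 337, 356 and 350.2 and 149, 139 and 133, all below a control level of 376, 374 and 370.4. AKR1C3 (-1.31) and AKR1C2 (-1.26) were lower as well, but these genes and AKR1C1 (0.20, called higher) have near-identical copies, so their separate values are uncertain. The common marker NQO1 differed by -0.30, and GSR, which recycles glutathione, by -0.56. AKR1B1 did not differ beyond its spread, with 1054 ± 22.8 FPKM under BSGL, 1025 ± 39.5 under RSGL and an interval of -0.13 to 0.046. GCLM, the partner of GCLC, was not called either, at 32.7 and 31.7 FPKM.

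The higher members besides HMOX1 were FTH1, FTL, TXNRD1, AKR1C1 and ABCC3. FTH1, the heavy chain of the iron store ferritin, read 2366, 2354 and 2364 FPKM under BSGL and 4551, 4456 and 4355 under RSGL, and the light chain FTL differed by 0.43. Ferritin genes have many processed copies in the genome, which may share reads with them. In heme and iron handling as a whole 9 of 21 genes were higher. ALAS1, the first enzyme of heme synthesis, was higher by 0.57, and FECH, the last, was lower (-0.49). The count of lower genes was 6, and 3 without BSGL library 1, BSGL library 2, RSGL library 1 or RSGL library 2.

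Of 12 metallothionein and zinc transport genes, 3 were higher, 2 lower and 7 not called, shares that do not exceed those of all genes. The count of higher genes fell to 1 without BSGL library 2, RSGL library 2 or RSGL library 3. MT2A read 396, 293 and 482 FPKM in control, 522, 389 and 531 under BSGL and 669, 934 and 924 under RSGL (limma, Benjamini-Hochberg adjusted p = 0.0252). It was no longer called without BSGL library 2 (0.0745), RSGL library 2 (0.0768) or RSGL library 3 (0.0697). MT1X was not called, at 59.3, 52.8 and 50.1 and 65.8, 75.8 and 115 FPKM, and these short genes resemble each other closely.

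In cholesterol synthesis and uptake 10 of 22 were higher and 8 lower, with a median of 0.092. INSIG1, which holds the sterol sensor in the endoplasmic reticulum, read 9.27, 9.43 and 9.70 FPKM under BSGL and 33.7, 33.3 and 33.6 under RSGL. Enzymes of the pathway went both ways. ACAT2 (-0.70, overlapped by TCP1 and SOD2 on the other strand), HMGCS1 (-0.53), FDPS (-0.28) and EBP (-0.25) were lower, MSMO1 (0.48), CYP51A1 (0.24) and MVD (0.18) were higher, and SQLE was not called (-0.039 to 0.13).

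In fatty acid synthesis and desaturation 8 of 17 genes were higher and 5 lower. ELOVL6 (0.61) and FADS3 (1.10) were higher, whereas ACLY (-0.46) and FASN (-0.21), which supply and build the chain, were lower. Among PPAR targets and fatty acid oxidation genes 11 of 22 were higher and 6 lower. ANGPTL4 exceeded all others: the remaining differences lay between -0.50 (CIDEC) and 0.54 (PPARA). PPARA passed the filter through the RSGL libraries alone, so its direction was set by the filter. Enzymes of oxidation went both ways by small amounts: ECI2 (0.45), ECI1 (0.21), ACADS (0.20), ACADVL (0.18), HADHB (0.15) and ACAA2 (0.10) were higher, and CPT2 (-0.32), EHHADH (-0.25), ETFDH (-0.24) and ACAA1 (-0.22) lower. HADHA (interval -0.10 to 0.088), ACADM (-0.20 to -0.0022) and HADH were not called. PDK4, a sensitive PPAR target, was lower, at 37.9 ± 1.04 FPKM under BSGL and 32.1 ± 1.003 under RSGL (SD, n = 3).

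Lipid droplet and triglyceride genes were higher in 9 of 17 tested cases. Beside PLIN2, the lipase inhibitor G0S2 read 9.95, 9.15 and 8.81 FPKM under BSGL and 21.7, 21.7 and 21.3 under RSGL, and MGLL, which cleaves monoglycerides, was higher by 0.71. PLIN3, a droplet coat protein of the same family as PLIN2, read 66.2 and 66.8 FPKM, with an interval of -0.050 to 0.073. The enzyme of triglyceride synthesis DGAT2 was not called (-0.073 to 0.23). GPAM (-0.27) was lower under RSGL in this list.

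Sphingolipid genes were higher in 12 of 25 cases and lower in 2. SPHK1, which makes sphingosine 1-phosphate, read 3.63, 4.44 and 3.82 FPKM under BSGL and 13.9, 12.6 and 13.2 under RSGL. UGCG, which turns ceramide into glucosylceramide, read 8.54, 8.996 and 8.50 and 22.01, 21.3 and 22.2. Acid ceramidase, ASAH1, was higher by 0.59. SPTLC3, a subunit of the enzyme that starts the pathway, was lower (-0.49, with TASP1 on its other strand), and its partners SPTLC1 (0.000072 to 0.15) and SPTLC2 (-0.031 to 0.17) were not called. SGPL1, the lyase that removes sphingosine 1-phosphate, read 16.1, 15.5 and 15.7 and 17.2, 16.1 and 14.1 FPKM, a difference within -0.15 to 0.14.

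Glycolysis and hypoxia genes were higher in 14 of 32 cases and lower in 12. VEGFA, the angiogenic factor, read 15.4, 15.2 and 16.2 FPKM under BSGL and 63.1, 64.1 and 62.9 under RSGL, 4.06-fold higher by the means. The glucose carrier SLC2A1 (0.76) and the hexokinase HK1 (0.67) were higher. Of the enzymes that follow, ALDOA (-0.25), TPI1 (-0.41), GAPDH (-0.29), PGK1 (-0.22), PGAM1 (-0.46), ENO1 (-0.26) and PKM (-0.44) were lower. ENO2 (0.63), PFKM (0.31) and PFKP (0.20) were higher, and PFKL and ALDOC were not called. LDHA, which forms lactate, went from 690.4, 686 and 700.4 FPKM to 452, 439.8 and 430.3. EGLN3, an oxygen sensor that HIF induces, was lower too, at 6.32, 6.51 and 5.91 and 2.15, 2.08 and 2.19 FPKM, so genes counted as hypoxia targets lay on both sides.

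TGF-beta and matrix genes were lower in 20 of 27 tested cases and higher in 2, with a median of -0.62. TGFBI, a matrix protein named for its induction by TGF-beta, read 251, 254 and 260.1 FPKM under BSGL and 90.2, 85.4 and 85.04 under RSGL. ID1, an inhibitor of differentiation factors that BMP signals raise, read 157, 179 and 173 and 54.4, 51.9 and 54.3. The ligand TGFB2 differed by -1.05, the receptor TGFBR2 by -0.80, the inhibitory SMAD6 by -0.95 and SMAD7 by -0.55, and THBS1 by -1.21.

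In the same list TGFB1 (-0.23 to 0.019) and the receptor TGFBR1 (-0.13 to 0.18) were not called. Of 9 fibroblast markers, which overlap this list in COL1A1, 3 were tested and 3 were lower, beside 28.3% of all tested genes. COL1A1 passed the filter through the BSGL libraries alone, so its direction was set by the filter. The 9 markers summed to 10.4 to 11.1 FPKM under BSGL and 7.93 to 8.21 under RSGL, and their part in the result was not tested.

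Plasminogen activators and proteases were higher in 9 of 15 tested cases and lower in 3. Cathepsin L, CTSL, read 109, 113 and 108 FPKM under BSGL and 298, 306 and 317 under RSGL. The urokinase receptor PLAUR was higher by 0.84 and urokinase, PLAU, by 0.41. The lower genes were MMP24 (-1.22), which MMP24OS overlaps on the other strand, MMP7 (-0.81) and MMP2 (-0.46).

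Cytokine genes were higher in 12 of 18 tested cases and lower in 3, with a median of 0.46. IL6 read 5.45 ± 0.311 FPKM under BSGL and 11.3 ± 0.569 under RSGL (SD, n = 3), and CSF2 read 1.28 ± 0.230 and 4.97 ± 0.322. Chemokines went both ways. The neutrophil attractant CXCL1 read 69.98, 70.8 and 83.7 and 25.3, 22.8 and 27.4 FPKM, and the monocyte attractant CCL2 read 11.8, 10.9 and 10.8 and 3.77, 4.63 and 3.66. By contrast CXCL2 (0.54) and CXCL5 (0.33) were higher, and CXCL8 was not called, at 15.5 and 13.99 FPKM with an interval of -0.27 to -0.013. NF-kB subunits and inhibitors were mixed, 5 of 15 higher and 7 lower, with RELB at 0.49, BCL3 at -1.06 and RELA not called (-0.034 to 0.15).

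Interferon response genes were lower in 18 of 24 tested cases, with a median of -0.42. IFI6 read 22.2, 23.7 and 23.04 FPKM under BSGL and 11.3, 14.5 and 11.9 under RSGL. The membrane restriction factors IFITM3 (-0.76) and IFITM2 (-0.73), the sensors RIGI (-0.51) and IFIH1 (-0.57) and IFIT1 (-0.75) were lower too. OAS1, which senses viral RNA, was higher, at 14.1, 13.2 and 14.02 and 20.5, 18.6 and 19.8 FPKM, and without RSGL library 3 there were 2 higher genes. In this list 3 members passed the filter through the BSGL libraries alone. ISG15 differed by -0.18 and IRF1 was not called (-0.039 to 0.17).

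Lysosome and autophagy genes were higher in 27 of 38 tested cases and lower in 3, with a median of 0.27. CD68, a glycoprotein of the lysosomal membrane, read 46.04, 45.1 and 45.2 FPKM under BSGL and 116, 121 and 119 under RSGL, with MPDU1-AS1 on its other strand. WIPI1, which acts in forming the autophagosome, read 2.57, 2.81 and 2.48 and 7.94, 7.54 and 8.62. The autophagosome protein MAP1LC3B read 17.1, 17.4 and 18.6 and 38.1, 37.1 and 35.4, and NPC1, which exports cholesterol from lysosomes, differed by 0.95. The cathepsin CTSD (0.46) and the saposin precursor PSAP (0.51) were higher. TFEB, a transcription factor of these genes, was lower (-0.27), as were GLA (-0.48) and ATP6V0D1 (-0.21).

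CD68 is also a marker of macrophages, and that list summed to 46.6 to 47.8 FPKM under BSGL and 117 to 121 under RSGL, nearly all of it CD68. Its other tested member, CD14, was lower (-0.97). CD14 passed the filter through the BSGL libraries alone, so its direction was set by the filter. LYZ and FCGR3A were at 0 in all 6 compound libraries and CD163 was at or under 0.0104 FPKM.

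Proteasome subunits were lower in 16 of 29 cases by small amounts, with a median of -0.11, and 18 of the 29 had an interval within 0.25 of 0. PSMD6 had the largest fall (-0.43) and PSMB7 the largest rise (0.28), with a lncRNA gene on the other strand of PSMB7. Genes for making ribosomes were lower in 18 of 26 cases with a median of -0.19, among them UBTF (-0.55), which activates transcription of ribosomal RNA, nucleolin, NCL (-0.40), and NOP56 (-0.39). The cytosolic ribosomal proteins themselves were among the least changed: 56 of 71 were not called, 36 of 71 had an interval within 0.25 of 0, 13 were higher and 2 lower. These were RPS26 (-0.48) and RPS10 (-0.55), and near-identical copies of ribosomal protein genes make single values uncertain.

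The mitochondrial genome did not move as 1 unit. Both of its rRNA genes were higher under RSGL. RNR1 read 964, 885 and 954 FPKM under BSGL and 1399, 1366 and 1494 under RSGL, and RNR2 read 5140, 4789 and 5009 and 7415, 7189 and 7268. Of the 13 protein genes 8 were lower and 2 higher, with a median of -0.36. COX3, a core subunit of cytochrome oxidase, read 5815, 5518 and 5892 FPKM under BSGL and 3226, 3224 and 3349 under RSGL, while COX1, the main catalytic subunit of the same enzyme, read 9141, 8750 and 9056 and 9767, 10180 and 10320.

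ND4 was the other higher protein gene, at 3698 ± 65.3 FPKM under BSGL and 4253 ± 159.6 under RSGL (SD, n = 3). ATP8 (-0.73), ATP6 (-0.54), CYTB (-0.54), ND2 (-0.43) and ND1 (-0.36) were lower, and COX2 (-0.013 to 0.21) was not called. Of 21 mitochondrial tRNA genes 15 were lower and 1 higher, with a median of -1.50. These genes are shorter than the fragments that such libraries favour, so their FPKM rest on few fragments and their intervals are wide. The 36 genes gave 23 lower and 5 higher. Nuclear genes for the respiratory chain, whose products join those proteins, were lower in 14 of 43 cases, 32.6% beside 28.3% of all genes, and their differences ran from -0.30 (NDUFS3) to 0.17 (SDHB).

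**Figure D4:**
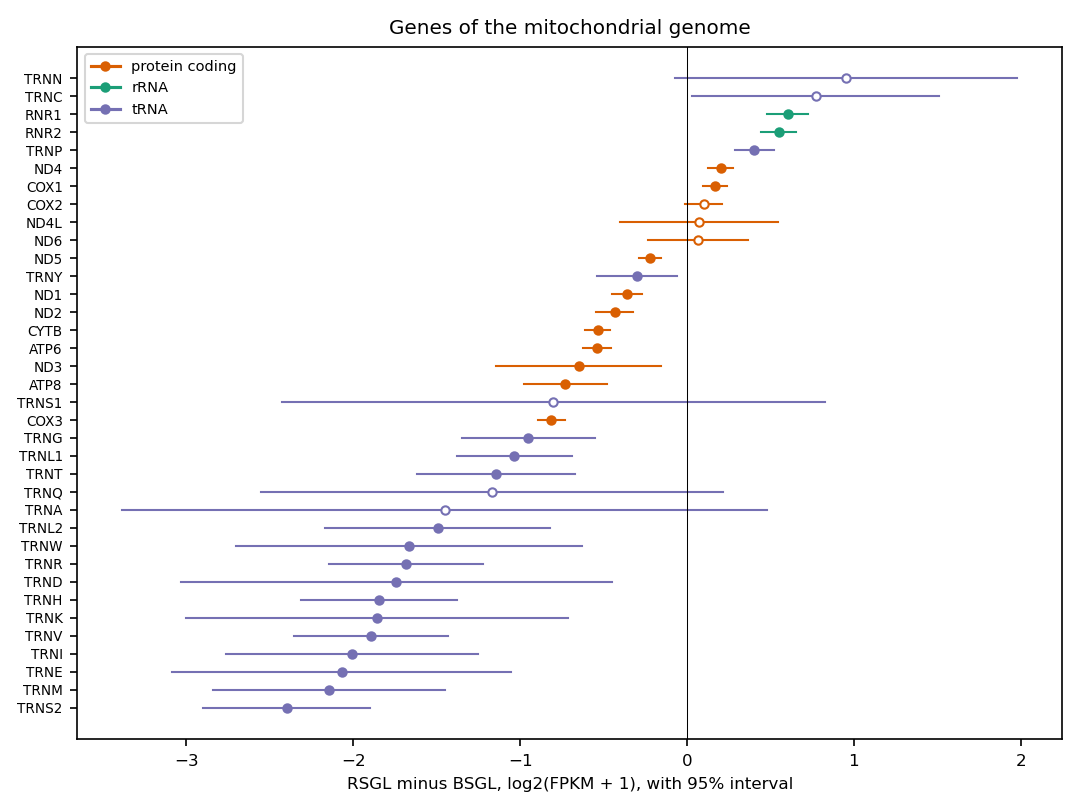
Difference between the compounds (RSGL minus BSGL, log2(FPKM + 1) scale) for the 36 tested genes of the mitochondrial genome, with 95% intervals and colours for protein, rRNA and tRNA genes. Filled points were called and open points were not, and the 2 rRNA genes sit at 0.60 and 0.55 while most tRNA genes lie further down than COX3 at -0.81.

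A set of 11 genes had been called between BSGL and control in earlier work on these libraries, so their BSGL and control levels were used in choosing them and are given as a description. RSGL was higher than BSGL in 9 of the 11 and lower in 2. In 6 genes BSGL lay above control and RSGL above BSGL: ANGPTL4, given above, IL11, CPA4, G0S2, SFRP1 and CPT1A. The cytokine IL11 read 66.3, 65.5 and 62.97 FPKM in control, 77.5, 79.6 and 80.3 under BSGL and 138, 141 and 149 under RSGL. CPA4, a carboxypeptidase, read 11.8, 12.9 and 12.1, 15.9, 16.7 and 16.04 and 18.2, 17.7 and 19.2, so that most of its distance from control was already reached under BSGL.

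CPT1A, which lets fatty acids into mitochondria, read 16.8, 17.4 and 17.2 FPKM in control, 20.9, 20.8 and 19.99 under BSGL and 23.4, 23.04 and 22.5 under RSGL, with an interval of 0.074 to 0.23 for the difference between the compounds. SFRP1, a secreted Wnt antagonist, read 22.7, 22.4 and 24.6, 28.5, 28.9 and 28.5 and 34.5, 34.5 and 34.95. These 2 genes, like CPA4, differed little between the compounds although their libraries did not overlap.

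In the other 5 genes BSGL lay below control, and RSGL took different directions. FADS2, a fatty acid desaturase, read 55.9, 52.8 and 53.9 FPKM in control, 39.95, 44.2 and 41.8 under BSGL and 28.02, 26.9 and 29.6 under RSGL, further down, with FADS1 overlapping it on the other strand. AKR1C2, which reduces steroids, read 75.5, 78.6 and 77.1, 61.9, 65.6 and 64.7 and 26.5, 26.04 and 25.8, the same order. INSIG1 read 11.9, 13.5 and 12.97 in control against the values given above for the compounds, so that the compounds lay on opposite sides of control. CYP1B1, a cytochrome P450 that the aryl hydrocarbon receptor induces, also lay on opposite sides, at 105, 111 and 104 in control, 86.5, 85.96 and 86.8 under BSGL and 178, 175 and 166 under RSGL. The desaturase gene SCD read 95.2, 93.1 and 97.2, 71.7, 75.7 and 73.9 and 92.02, 86.8 and 82.95, with the RSGL libraries between the other groups.

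**Figure D5:**
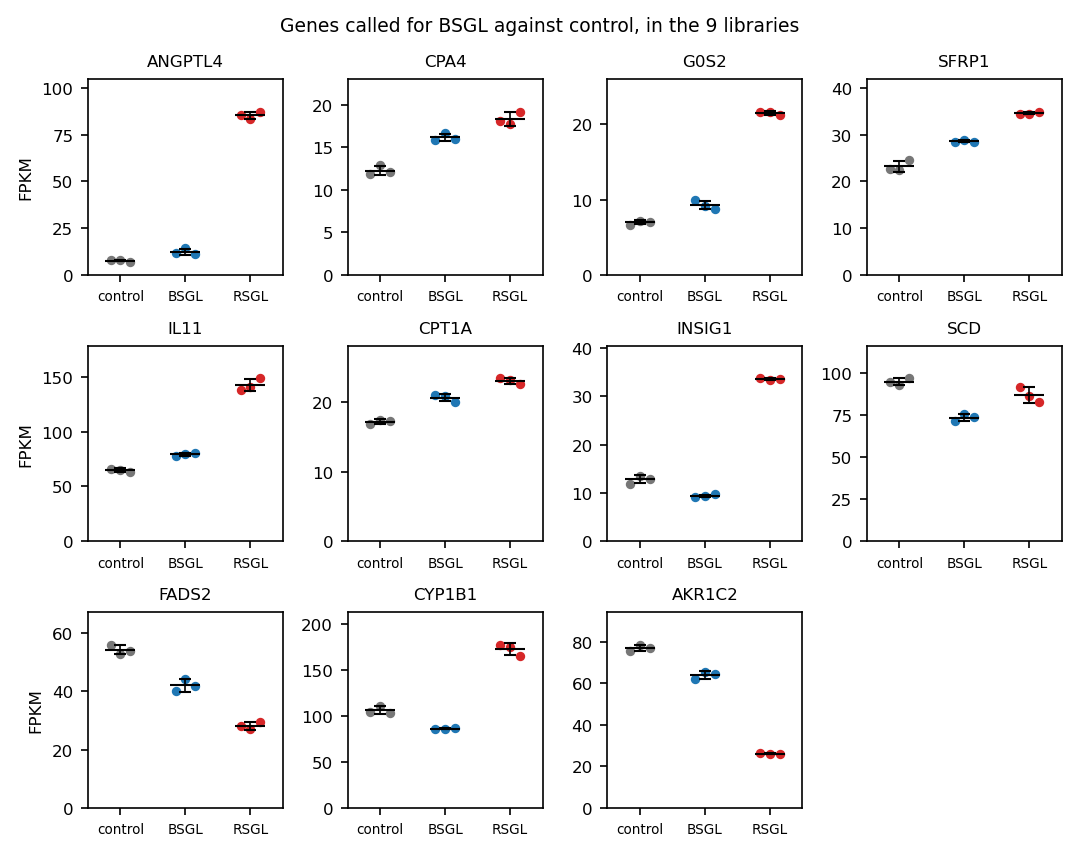
FPKM in the 9 libraries for the 11 genes called between BSGL and control in earlier work on these data, 1 panel per gene with its own linear axis from 0. Points are libraries, lines are means and bars are SD (n = 3), and RSGL stands above BSGL in 9 panels and below it for FADS2 and AKR1C2.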

How the data were processed

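RNA of 9 samples in 3 groups of 3 libraries was sequenced. TRIzol extraction and NEBNext Ultra libraries are given per the labels' protocols. Of HISAT2 (2.0.5), DESeq2 (1.16.1) and featureCounts (1.5.0-p3), the submitters' processing notes give no role. Per the file headers, the authors deposited FPKM per gene for each library with NCBI gene IDs, gene lengths and GRCh38 positions. Fragments per gene, recovered from FPKM and length, came within 0.01 of whole numbers for 100% of values under 300. Names were updated through RefSeq gene IDs (846 tested genes) and 28 date-like names were restored, and 228 genes on other sequences were left out.

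With limma 3.58.1 (R 4.3.3, statmod 1.5.0; trend, robust), log2(FPKM + 1) of all 9 libraries was modelled by group, so that controls helped to estimate the spread. The contrast was RSGL minus BSGL, with Benjamini-Hochberg adjustment over 12224 genes and a threshold of 0.05. The model was tested on simulated data. Errors are SD (n = 3) or 95% intervals, which cover the spread between these libraries. The named genes were the 6 largest rises and falls among called protein-coding genes with a mean of 5 FPKM and libraries apart, then 2 per list with 5 or more called members, 1 against each list's direction and 11 genes called for BSGL. Other members were named after their values were seen. The genes and lists were chosen with earlier results of these data known. The alternatives changed the pseudocount, filter, scaling, model, threshold, genes and libraries. Some genes that the rule names are not reported here.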

Additional observations from a re-analysis of the deposited data

How the results depend on the processing

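The test against a 1.2-fold change called 2103 genes, 1063 higher and 1040 lower. Under it, the members called in the main direction of a list numbered 16 for homologous recombination, 11 for lysosome, 10 for interferon, 7 each for sphingolipid and cytokine genes, and 6 for endoplasmic reticulum genes. They numbered 5 each for mitochondrial protein genes and the 11 genes called for BSGL, 4 each for heme and iron, PPAR and ribosome biogenesis genes, and 3 each for BCL2 family, cholesterol and NF-kB genes. They numbered 2 each for heat shock, fatty acid synthesis, proteasome and HOX genes, 1 for metallothioneins, and 0 each for nuclear respiratory chain and ribosomal protein genes. The alternative asks for a larger change by its construction. Counts of 2-fold genes were 330 higher and 293 lower with a pseudocount of 0.1, and 372 and 319 with limma-voom on recovered fragments, neither of which damps low values as much. Without a filter, 13803 genes had an interval within 0.25 of 0, because many more genes near 0 entered. With the filter at 5 FPKM, 2 HOX genes were lower, as fewer genes were tested. Over the omission of each library, called genes ranged from 6148 to 6860, 2-fold genes from 186 to 196 higher and from 156 to 164 lower, small differences from 2986 to 3602, and metallothioneins called higher from 1 to 4. Of 2196 values of the 100 named genes over 22 alternatives, 2174 kept direction and call, 22 kept the direction and lost the call, 19 of those under the 1.2-fold test, and 0 reversed.

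Same-numbered libraries of different groups did not deviate together (correlations of -0.175 to 0.204 over 9 pairs, 1 of them above 0.1), so the numbers were not taken to pair the samples. With the replicate number as a block, 6666 genes were called, 3313 higher and 3353 lower, and 189 and 158 reached 2-fold.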

Other observations

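Transcription factor families, as the deposited table assigns them, are described by their counts of called members, beside 27.7% of all tested genes called higher and 28.3% lower. Of 36 bZIP factors, the family that holds ATF4 and the AP-1 proteins, 25 were higher under RSGL (69.4%) and 6 lower. The 25 include FOS and FOSB, whose direction was set by the filter. Several factors of this family have been given above with their lists. Among those not yet described NFIL3 differed by 1.11, MAFF by 1.34, MAFK by 0.67 and CREM by 0.44. The circadian output factors DBP (-0.52) and TEF (-0.41) were lower. Of 13 factors in the family of thyroid hormone receptor-like nuclear receptors, 9 were higher and 1 lower. The 9 include PPARA, whose direction was set by the filter. The heme-binding repressor NR1D1 read 4.39, 4.57 and 4.77 FPKM under BSGL and 9.49, 10.6 and 10.1 under RSGL. The vitamin D receptor gene VDR was higher, at 2.68, 3.10 and 2.68 and 5.46, 5.53 and 5.32 FPKM, and the retinoic acid receptor gene RARB was lower (-1.03). Of 29 HMG box factors 18 were lower (62.1%) and 5 higher. SOX2, a factor of progenitor cells, read 8.08, 7.69 and 7.64 FPKM under BSGL and 1.71, 1.94 and 1.896 under RSGL, and SOX9 was higher by 0.51.

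Of 702 long noncoding RNA genes, 140 were higher and 157 lower (42.3% called, beside 59.6% of 10584 protein-coding genes). Their median level was 1.9 FPKM, beside 8.65 for protein-coding genes, and the scale used damps differences at low levels. Whether the called shares differ at equal level was not tested. GAS5, a host gene of small nucleolar RNAs, read 231, 215 and 236 FPKM under BSGL and 609.6, 553 and 519 under RSGL, and ZFAS1, another host gene, differed by 0.73. MALAT1 went from 34.7 to 69.4 FPKM and NEAT1 from 37.9 to 58.1, both retained in the nucleus. LINC00473 was lower, at 22.3, 22.9 and 23.6 and 8.15, 7.28 and 7.27 FPKM.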
